A study of Mus musculus with 54 samples.

Results

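The widest stretches of chromatin acetylated at lysine 27 of histone H3 (H3K27ac) in naive microglia were described here, together with the RNA of the genes that start inside them. Naive microglia are those of PP mice, which had received PBS at both injections. The H3K27ac list of PP microglia holds 32636 peaks, and the 500 widest, with ties at the 500th included, were 517 peaks of at least 13000 bp, called domains below. The domains were selected on their width in this list alone, so their widths in PP are a description.

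Microglia were sorted from 2 mouse models as live cells (DAPI-negative) that were high in CD11b, intermediate in CD45 and without Ly6C. In the recurrent model, C57BL/6J males were injected intraperitoneally 2 times, 4 weeks apart, with LPS at 1 mg/kg (L) or PBS (P), which gave LL, PL, LP and PP mice, and tissue was taken 3 h after the last injection. In the accelerated aging model, on a mixed FVB and C57BL/6J background and at 11 to 12 weeks of age by the study's methods, Ercc1 Δ/ko mice (KO) and control littermates (WT, which were Ercc1 wt/Δ, wt/ko or wt/wt) received 1 injection of LPS or PBS, giving KO-LPS, WT-LPS, KO-PBS and WT-PBS. RNA came from 3 mice per group as 1 library each, whereas each H3K27ac list came from 1 library of chromatin pooled from 5 mice and each ATAC list from 1 library of 2 pooled mice, so that peak lists had no replicates. H3K27ac lists exist for LP, PL, LL and PP and for KO-PBS and WT-PBS. The Ercc1 deletion is carried by all cells of the mouse, not by microglia alone. Ercc1 itself was measured at 4.67 to 6.82 CPM in KO-LPS, against 7.93 to 9.82 CPM in WT-LPS, where CPM is the count of a gene scaled to library size with TMM factors. It was at 5.14 to 8.18 CPM in KO-PBS, against 8.79 to 10.96 CPM in WT-PBS, so KO and WT did not overlap under either treatment.

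H3K27ac is written by the acetyltransferases CBP and p300 and marks active promoters and enhancers. Most acetylated regions are short, but each cell type also has a set of very broad acetylated domains, often discussed as super-enhancers or stretch enhancers, which are known to lie at genes of cell identity and at genes that the cell transcribes strongly. Microglia are the resident macrophages of the brain, whose identity depends on factors such as PU.1, IRF8 and SALL1 and on TGF-beta, and which respond to LPS through TLR4 and NF-kB.

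Sequences of the chromatin inside the domains are shown first, since the finding concerns DNA regions. The lines below give 100 bases of the plus strand (RefSeq, GRCm38.p6) around the ATAC summit of PP microglia with the highest signal in each of 5 domains, chosen because these genes return in the RNA results: the chemokine receptor gene Cx3cr1 at chr9:120054901-120055000, the inositol phosphatase gene Inpp5d at chr1:87621570-87621669, the microglial repressor gene Sall1 at chr8:89043601-89043700, the PU.1 gene Spi1 at chr2:91084691-91084790 and the mRNA decay factor gene Zfp36 at chr7:28383066-28383165. Capitals mark matches to any of the 7 motifs searched on both strands, which are spelled out with the ATAC results.
Cx3cr1: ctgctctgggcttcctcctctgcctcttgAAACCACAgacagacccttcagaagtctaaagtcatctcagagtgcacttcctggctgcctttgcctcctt
Inpp5d: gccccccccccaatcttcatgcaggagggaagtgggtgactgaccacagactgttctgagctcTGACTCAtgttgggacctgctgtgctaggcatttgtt
Sall1: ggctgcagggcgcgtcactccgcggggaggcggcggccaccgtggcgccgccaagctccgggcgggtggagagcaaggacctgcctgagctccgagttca
Spi1: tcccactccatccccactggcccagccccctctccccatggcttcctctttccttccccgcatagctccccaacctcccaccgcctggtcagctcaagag
Zfp36: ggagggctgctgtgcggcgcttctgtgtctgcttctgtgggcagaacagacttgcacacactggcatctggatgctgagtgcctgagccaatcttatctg
The Cx3cr1 summit lay 14928 bp from the gene's start and held a RUNX motif on the minus strand, whereas the Inpp5d summit lay 1308 bp from the start and held an AP-1 motif. The other 3 summits held none of the 7 motifs in this window.

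MicroRNA genes were also found in the domains. Of 1003 mouse hairpins in RefSeq, 15 (1.496%) lay in 11 domains, and the miRNAs shown here belong to the best known of them, with the seed (bases 2 to 8) in capitals.
mmu-miR-142a-3p: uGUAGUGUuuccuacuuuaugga
mmu-miR-142a-5p: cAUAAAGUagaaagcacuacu
mmu-miR-23a-3p: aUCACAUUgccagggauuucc
mmu-miR-27a-3p: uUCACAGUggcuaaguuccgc
mmu-miR-24-3p: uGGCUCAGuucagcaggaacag
mmu-miR-339-5p: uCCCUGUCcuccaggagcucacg
mmu-miR-326-3p: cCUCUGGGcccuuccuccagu
No 2 of these 7 miRNAs share a seed. The hairpin of miR-142, a miRNA of blood cells and macrophages, lay in a domain of 14800 bp at chr11:87748001-87762800 that also holds the start of its host transcript Mir142hg. The hairpins of miR-23a, miR-27a and miR-24 lay together in a domain of 14400 bp at chr8:84197201-84211600, miR-339 lay in the eighth widest domain at Gpr146, and miR-326 lay in the domain of its host gene Arrb1. Mature miRNAs are not measured by these RNA libraries. The miR-142 domain was covered over 100% of its length in LP, 90.5% in PL, 94.6% in LL, 60.8% in KO-PBS and 64.9% in WT-PBS, and the miR-23a domain over 100%, 93.1%, 98.6%, 83.3% and 97.2% in the same lists.

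The domains were 13000 to 65800 bp wide, with a median of 16800 bp. Their summed length was 10.4 Mb, which is 14.5% of the 71.5 Mb that all PP peaks cover. At the threshold, 28 domains had a width of 13000 bp and a median score of 115, and the 14 peaks just outside had a width of 12800 bp and a median score of 117.5. The domains lay on 20 chromosomes, with 57 on chromosome 2 and 2 on chromosome X.

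The domains were more often placed at gene starts than narrower peaks, in number but not per length. A protein-coding gene started inside 234 of the 517 domains (45.3%), 224 (43.3%) lay inside or across a coding gene without its start, and 59 (11.4%) lay between coding genes. Of the next widest 524 peaks (9400 to 12800 bp), 32.4% held a coding start, and of all 32119 other peaks, which include these 524 (median 1200 bp), 28.0% did. The density of coding starts was nevertheless 2.80 per 100 kb in domains, 3.71 per 100 kb in the next 524 and 16.8 per 100 kb in all 32119 other peaks. The 283 domains without a coding start lay at a median of 25994 bp from the nearest one, and up to 746957 bp, at Zfhx3. In all, 290 coding and 121 long non-coding RNA genes started in domains, and these 411 genes are called domain genes.

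The widest domain was that of Map4k4 (chr1:39900201-39966000, 65800 bp), a kinase gene, which was followed by Zfp710, a zinc finger gene (chr7:80023601-80087600, 64000 bp), and by a domain of 61800 bp inside Prex1 (chr2:166618201-166680000), a Rac exchange factor gene whose start lay 33832 bp away. Slco2b1, a transporter gene, had a domain of 57200 bp, Cx3cr1 one of 50000 bp (chr9:120023801-120073800), Inpp5d one of 49800 bp (chr1:87619401-87669200) and Gpr146, an orphan receptor gene, one of 48800 bp. The others among the 10 widest crossed Poc1a (51200 bp), Sipa1l2 (48800 bp), and Itgb5 and Umps (48600 bp) without the start of a coding gene.

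The gene lists chosen for this tissue were then looked up in the domains, in which 1.32% of the 21938 annotated coding genes start. The homeostatic and lineage lists had the most members there by number, but the lists differ in length. By share, the TGF-beta pathway came before the lineage factors. Among 26 homeostatic microglia genes, 16 started in a domain, among them Cx3cr1, Csf1r, which encodes the receptor that microglia need to survive (39200 bp), Tmem119 (30000 bp) and the complement genes C1qa, C1qb and C1qc. Of 20 lineage transcription factors, 7 did so, which were Etv5, Ikzf1, Irf8, Lyl1, Maf, Sall1 (29400 bp) and Spi1 (21200 bp). The counts were 5 of 12 for the TGF-beta pathway (Ski, Skil, Tgfbr1, Tgfbr2 and Zeb2), 5 of 20 for immune receptor signalling (among them Blnk, Inpp5d and Vav1), 5 of 20 for actin and adhesion (Dock8, Itgb5, Pfn1, Rhoh and Wasf2) and 5 of 20 for lysosome (Ctsd, Ctss, Laptm5, Lgmn and Psap). In the other lists, 0 of 12 cytokines, 0 of 15 chemokines, 0 of 25 interferon-stimulated genes and 0 of 17 genes of primed microglia started in a domain, and the NF-kB family and immediate early genes had 1 each (Nfkbid of 14 and Zfp36 of 23). At the share over all coding genes, lists of this length are too short to tell 0 members from few. Of the lists of other brain and blood cell types, only border-associated macrophages had a member in a domain, Stab1.

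Next, the question was whether these domains keep their extent after LPS and in the Ercc1 model. All 517 domains were met by at least 1 peak in each of the other 5 lists, so that 0 domains were lost, which allows a share of up to 0.738% (Wilson's 95% interval, as for all shares here, which covers counting error over domains only). Peaks of LP covered 97.0% of the domains' summed length, peaks of PL 90.8%, peaks of LL 93.7%, peaks of KO-PBS 82.9% and peaks of WT-PBS 89.6%. The share of domains covered over at least 80% of their length was 98.6% in LP (97.2 to 99.3), 85.5% in PL (82.2 to 88.3) and 92.5% in LL (89.9 to 94.4), and it was 65.6% in KO-PBS (61.4 to 69.5) and 80.9% in WT-PBS (77.2 to 84.0). These intervals do not overlap between LP, LL and PL, nor between KO-PBS and WT-PBS. With 1 pooled library per list, however, differences between conditions cannot be told apart from differences between libraries.

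With any overlap counted as a meeting, domains were split more often than they were lost. A single peak met 78.1% of the domains in LP, 55.5% in PL, 64.4% in LL, 41.0% in KO-PBS and 54.7% in WT-PBS, and the mean number of peaks per domain was 1.24, 1.64, 1.49, 1.95 and 1.66 in these lists. The widest peak that met a domain had a median of 1.01 times the domain's width in LP, 0.923 times in PL, 0.985 times in LL, 0.749 times in KO-PBS and 0.915 times in WT-PBS. It was wider than the domain for 284 domains in LP, 136 in PL, 198 in LL, 53 in KO-PBS and 133 in WT-PBS.

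**Figure D1:**
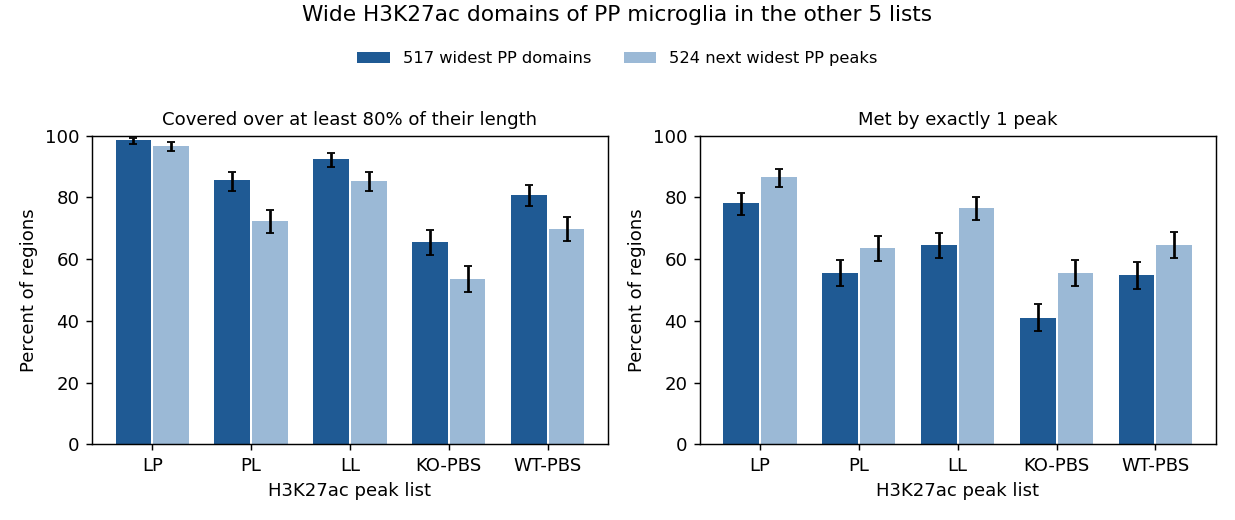
Percent of H3K27ac regions (y axis) covered over at least 80% of their length (left) or met by exactly 1 peak (right) in the other 5 H3K27ac lists (x axis), for the 517 widest PP domains and the 524 next widest PP peaks; error bars are Wilson's 95% intervals over regions. The domains were highest in LP (98.6% covered) and lowest in KO-PBS (65.6%), and in every list the domains were covered more often but met by 1 peak less often than the next widest peaks. The domains are the wider regions, and the shares were not scaled to width.

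**Figure D2:**
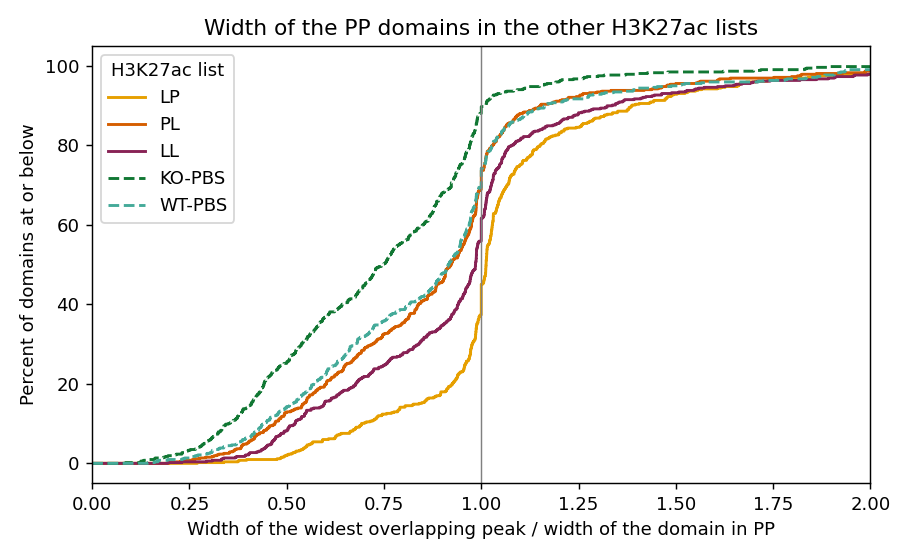
Cumulative percent of the 517 domains (y axis) by the width of the widest overlapping peak divided by the width of the domain in PP (x axis, up to 2), 1 line per list, with solid lines for the recurrent model and dashed lines for KO-PBS and WT-PBS. The medians lay at 1.01 in LP, 0.985 in LL, 0.923 in PL, 0.749 in KO-PBS and 0.915 in WT-PBS, and the vertical line marks the width in PP.

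A rank within each list does not depend on how much of the genome a list covers, and by rank the lists differed less from each other than by coverage. The lists differed in what they covered, with 79.3 Mb in LP, 66.3 Mb in PL, 72.8 Mb in LL, 56.1 Mb in KO-PBS and 61.1 Mb in WT-PBS, against 71.5 Mb in PP. All 6 lists carry the same settings of the peak caller, which the study describes as refined by hand per sample. The 500 widest peaks began at 14200 bp in LP, 12200 bp in PL, 13200 bp in LL, 10200 bp in KO-PBS and 11600 bp in WT-PBS. Of the domains, 77.2% met one of these widest peaks in LP, 72.0% in PL, 74.7% in LL, 66.2% in KO-PBS and 73.3% in WT-PBS, and 252 domains (48.7%) did so in all 6 lists. At least 80% of the length was covered in all 5 other lists for 303 domains (58.6%).

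The domains were covered more completely than the next widest 524 peaks in each list. For those the share covered over at least 80% was 96.8% in LP, 72.3% in PL, 85.3% in LL, 53.6% in KO-PBS and 69.8% in WT-PBS, and for the other 32119 peaks it was 76.1%, 56.2%, 64.4%, 39.7% and 44.2%. The domains were met by 1 peak less often than the next 524, of which 86.6% were met by 1 peak in LP, 63.5% in PL, 76.5% in LL, 55.5% in KO-PBS and 64.7% in WT-PBS. A wider region can meet more peaks, and these shares were not scaled to width. Because the domains were selected as the widest of PP, a narrower peak in another list is favoured by the choice itself. In the reverse view, the widest peaks of each other list (500 with ties) were covered over at least 80% by PP peaks in 91.1% of cases for LP, 90.4% for PL, 89.7% for LL, 97.8% for KO-PBS and 92.6% for WT-PBS.

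Within the recurrent model, the coverage of single domains was compared list by list. It was lower in PL than in LP for 359 domains, higher for 78 and equal for 80, with a median difference of -3.25 percentage points. It was higher in LL than in PL for 293 domains, lower for 104 and equal for 120, with a median difference of 1.22 points. Of the 75 domains with less than 80% coverage in PL, 44 were covered over at least 80% in LL and 31 were not, whereas 8 were below 80% in LL alone of the 2. In the Ercc1 model, coverage was lower in KO-PBS than in WT-PBS for 383 domains, higher for 91 and equal for 43, with a median difference of -5.34 points, and 103 domains were below 80% in KO-PBS only and 24 in WT-PBS only. WT-PBS itself had lower coverage of the domains than LP, PL and LL had over at least 80% of length, but WT-PBS and PP mice differ in strain and their ChIP libraries in the version of the kit, and these cannot be told apart.

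The 16 homeostatic genes start in 14 domains, and 14 of these in LP, 13 in PL, 13 in LL, 10 in KO-PBS and 14 in WT-PBS were covered over at least 80% of their length. The Inpp5d domain was 1 peak covering at least 99.6% of the domain in each of the other lists. The Cx3cr1 domain was covered over 98.8% of its length in LP, 94% in PL, 99.6% in LL, 90% in KO-PBS (in 2 peaks) and 88.4% in WT-PBS (in 3 peaks). The Map4k4 domain stayed 1 peak in LP (99.7%) and WT-PBS (99.1%) but was split into 3 peaks in PL (94.8%), 4 in LL (93.9%) and 6 in KO-PBS (85.4%). The domain of Cst3, which encodes cystatin C, was among the homeostatic domains the one with the most peaks after LPS, with 5 peaks over 65.4% of its 31800 bp in PL, 4 over 73.6% in LL and 2 over 94.97% in LP, and with 4 over 58.5% in KO-PBS and 2 over 82.4% in WT-PBS.

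The 5 domains with the lowest coverage in PL were 13000 to 14400 bp wide in PP, and none of them held the start of a coding gene. A domain of 13000 bp inside Rab6b, a Rab GTPase gene, was covered over 32.3% in PL and 35.4% in LL but over 100% in LP, and over 29.2% in KO-PBS and 46.2% in WT-PBS. One of 14400 bp inside Sema4b, a semaphorin gene, was covered over 43.1% in both PL and LL, 66.7% in LP, 20.8% in KO-PBS and 73.6% in WT-PBS. A domain of 13600 bp inside Mertk, a phagocytic receptor gene, was covered over 48.5% in PL, 77.9% in LL and 100% in LP. Another peak at Mertk took the other direction: it was 25400 bp wide in PL, where the widest PP peak was 11400 bp. In PP, 3 peaks together covered 75.6% of it. Between KO-PBS and WT-PBS, a domain of 13600 bp inside Ccdc12 was covered over 22.1% in KO-PBS and 97.1% in WT-PBS, while the domain next to Cd9, a tetraspanin gene, was covered over 51.6% in KO-PBS and 32.97% in WT-PBS.

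Other lists also held wide peaks at places where PP had several narrower peaks. The peak at Lpcat1, a phospholipid acyltransferase gene, was 28400 bp in LP, 27800 bp in PL and 29400 bp in LL, against 11000 bp for the widest peak there in PP. At Etv3, a transcriptional repressor gene, a peak of 21400 bp in PL stood against pieces of at most 6400 bp in PP. At Mcl1, an anti-apoptotic gene, the KO-PBS list had a peak of 19600 bp, against 12600 bp in PP, just under the threshold. Much of these places was already covered in PP. PP peaks covered 86.6%, 88.5% and 83.7% of the Lpcat1 peak of LP, PL and LL. They covered 52.3% of the Etv3 peak, in 6 pieces, and 92.9% of the Mcl1 peak, in 2 pieces.

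The domain of Socs3, which encodes the feedback inhibitor of cytokine receptors, met wider peaks in all lists of the recurrent model. It was 17200 bp in PP (chr11:117954001-117971200), and the widest peak that met it was 26800 bp in PL and 35800 bp in LL, against 20000 bp in LP, 7600 bp in KO-PBS and 11400 bp in WT-PBS. The domain of Gpr84, a receptor for medium-chain fatty acids, was 16800 bp in PP and met a peak of 15000 bp in PL and one of 22600 bp in LL.

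The other marks and ATAC were not used to choose the domains. H3K4me3, the mark of promoters, met 514 domains in PP (99.4%) but covered 48.3% of their length, and it met 99.4% of the next widest 524 peaks and covered 45.2% of their length. Of all other peaks it met 74.0% and covered 53.6% of the length. H3K4me3 covered 54.8% of the domains' length in LP, 48.6% in PL and 55.9% in LL. It covered 35.8% in KO-PBS and 46.2% in WT-PBS, lists that were called at a stricter setting than those of the recurrent model, so only KO-PBS and WT-PBS are comparable here. H3K4me1, the mark of enhancers, met all 517 domains and all of the next widest 524 peaks in both of its lists. It covered 99.9% of the domains' length in the list labelled KO-PBS and 99.6% in the list labelled WT-PBS. The sources disagree on which of these 2 lists is which genotype, so they are not compared. The repressive mark H3K27me3 met 6 domains (1.16%) in both WT-PBS and KO-PBS, and among the next widest 524 peaks it met 8 (1.53%) in WT-PBS and 12 (2.29%) in KO-PBS. The share over all other peaks was 18.4% in WT-PBS and 17.1% in KO-PBS, so the low share was not particular to the domains.

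Open chromatin was found in every domain in PP. The domains held 4525 of the 69188 ATAC summits of PP (6.54%), with a median of 8 per domain (1 to 33). There were 4.36 summits per 10 kb in domains, 4.41 in the next widest 524 peaks and 6.01 in all other peaks. The median per domain was 8 in LP, PL, LL and WT-LPS, 7 in KO-LPS and KO-PBS and 6 in WT-PBS, whose list is the shortest with 36412 peaks. Of the PL summits in domains, 17.98% (16.9 to 19.1) lay in peaks with no partner in PP, against 12.0% in other H3K27ac peaks and 32.7% outside them. Of the PP summits in domains, 18.3% had no partner in PL, against 12.2% in other peaks and 32.7% outside. Between LP and PP, neither of which had acute LPS, much of this was also present. There 11.9% of LP summits in domains had no partner in PP, against 7.80% in other peaks. In the reverse direction the shares were 15.7% and 9.55%. With 1 pooled library per list, these shares have no replicate error.

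The 100-bp windows around PP summits were then searched on both strands for 7 consensus motifs. PU.1 (GAGGAAGT) was found at 5.68% of summits in domains, against 5.86% in other H3K27ac peaks and 6.58% outside them. The shares were 3.73%, 3.37% and 3.71% for AP-1 (TGANTCA), 2.85%, 3.41% and 3.81% for IRF (GAAANNGAA), and 3.76%, 3.88% and 4.67% for C/EBP (TTGCNNAA). They were 1.15%, 0.882% and 1.17% for RUNX (TGTGGTTT), 0.287%, 0.332% and 0.283% for NF-kB (GGANTTTCC), and 0.221%, 0.166% and 0.140% for MEF2 (CTAAAAATA). For each motif the difference between domains and other peaks was below 1 percentage point, with a median GC content of 54% in domains, 55% in other peaks and 51% outside. RUNX, NF-kB and MEF2 were so rare at summits that a limit of 1 point cannot show whether domains and other peaks are alike in them. The windows of the Cx3cr1 and Inpp5d summits printed above were thus not typical in holding a motif.

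RNA was measured independently of the domains. The deposited counts were summed to 4530395 to 34659337 per library. The 10 microglia markers, of which 8 start in a domain, were detected in every library, and the lowest of them in any library was at 143 CPM. In bulk RNA, fewer cells of a type and less RNA per cell cannot be told apart.

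Domain genes were among the most expressed genes of PP microglia. The level per length of the 288 coding domain genes that passed the filter on low counts, of 290, had a median of 49.7 RPKM (quartiles 20.1 and 117), against 6.23 RPKM for all coding genes tested, and 64.2% of them were above the 90th percentile. Coding genes nearest to the 283 domains with no coding start were at a median of 19.98 RPKM (over those of 216 genes that passed the filter), and lncRNA domain genes at 5.08 RPKM (64 of 121 tested). The same coding genes had a median of 39.3 RPKM in PL, 41.2 RPKM in KO-PBS and 42.8 RPKM in WT-PBS, where all coding genes had 6.07, 4.46 and 4.49 RPKM.

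**Figure D3:**
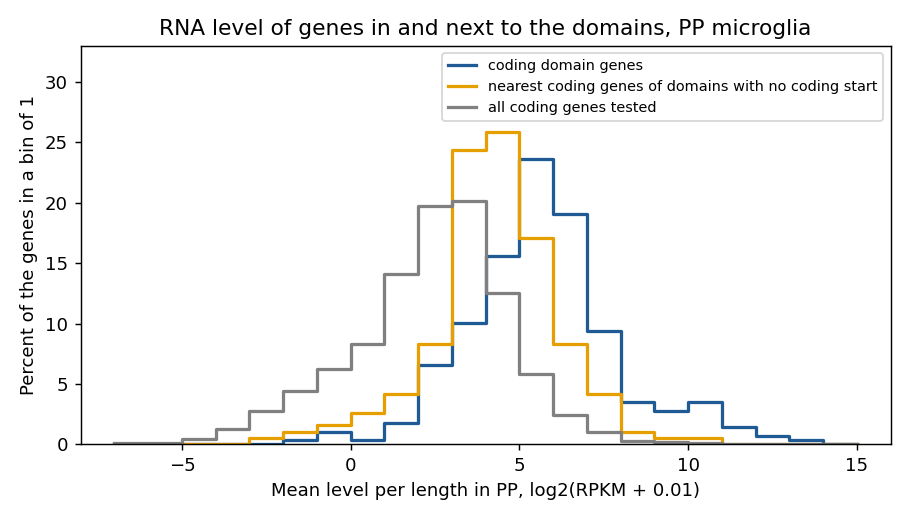
Percent of genes (y axis) by their mean RNA level per length in PP microglia (x axis, log2 of RPKM + 0.01, in bins of 1), for coding domain genes, for the nearest coding genes of domains with no coding start and for all coding genes tested. The coding domain genes lie to the right, with a median of 49.7 RPKM, against 19.98 RPKM for the nearest genes and 6.23 RPKM for all coding genes.

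The third WT-PBS library stood apart at these genes. Its CPM relative to the mean of the other 2 WT-PBS libraries was at a median log2 ratio of -0.52 for the 16 homeostatic domain genes and -0.26 for all 334 domain genes tested, with 52 (15.6%) below -1, whereas over all 17460 genes the median was 0.00 with 3.77% below -1. Summed CPM of the 10 microglia markers ran from 40017 to 43130 in KO-PBS and from 32144 to 60763 in WT-PBS. The numbers of genes called against WT-PBS are therefore also given without this library, as are the values of the genes described.

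No domain gene passed the test for a change 4 weeks after LPS alone. In LP against PP, 0 of 352 domain genes tested were called at an adjusted p under 0.05 (edgeR's quasi-likelihood test with Benjamini-Hochberg adjustment over 16096 genes, as in all RNA results), where over all genes 0% were called higher and 0% lower. At an unadjusted p under 0.05 there were 13 (3.69%), DESeq2 called 0 and limma with surrogate variables called 1. The median log2 fold change was -0.05.

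The acute response to LPS was mainly a fall. In PL against PP, 52.3% of 352 domain genes were lower and 67 (19.0%) were higher, whereas over all genes 26.6% were lower and 26% were higher. The median log2 fold change of domain genes was -0.41, against -0.04 over all genes. Of coding domain genes, 151 were lower and 60 higher of 288, and of lncRNA domain genes, 33 were lower and 7 higher of 64. The lncRNA counts may hold reads of coding genes on the other strand, since the counting is not stated to use strand. The fall was not particular to the 517 domains: of 251 genes that start in the next widest 524 peaks, 126 (50.2%) were lower and 52 (20.7%) were higher, with a median of -0.37, and of the nearest genes 97 (50.3%) were lower and 51 (26.4%) were higher. Genes in any other PP peak were lower in 31.1% and higher in 26.1%. Summed CPM of the microglia markers was also lower, at 28082 to 37518 in PL against 42304 to 49251 in PP, and the monocyte list was at 55.3 to 94.8 CPM in PL against 22.1 to 29.0 CPM in PP, with 1 of its 6 genes at 0 in all PP libraries. The neutrophil list was at 1.41 to 305 CPM in PL against 0.115 to 51.4 CPM in PP, with 1 of 10 genes at 0 in all PL libraries and 3 in all PP libraries. The part of other cells in these results was not tested.

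The RNA changes were set beside the coverage of the domains in PL. Of 45 genes in domains with under 80% coverage in PL, 26 fell and 4 rose, and of 307 genes in domains with at least 80% coverage, 158 (51.5%) fell and 63 rose. Where the widest peak was wider in PL than in PP, 54 of 108 genes fell and 24 rose.

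**Figure D4:**
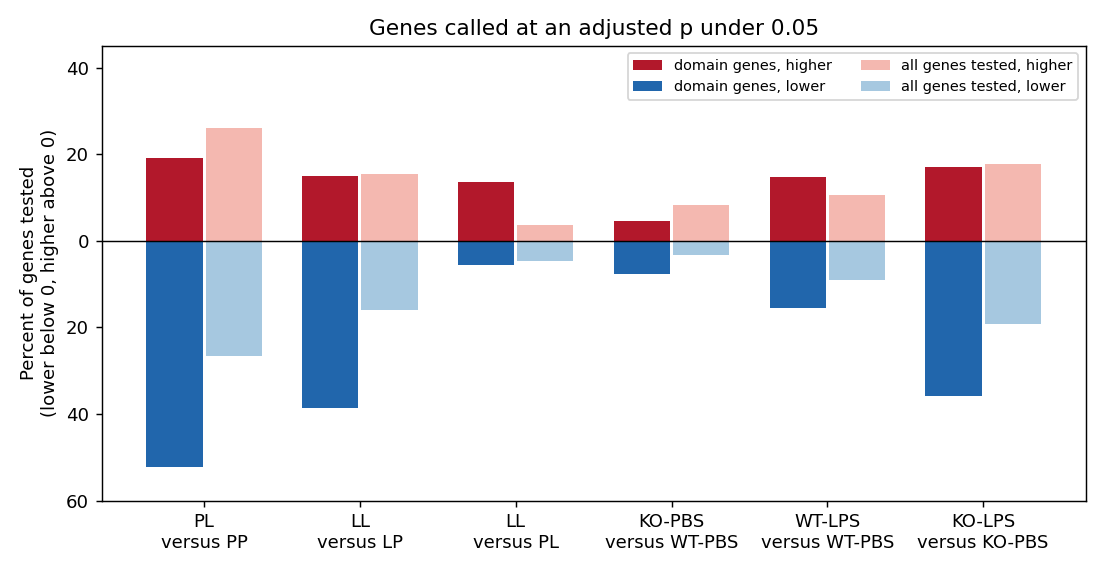
Percent of genes called at an adjusted p under 0.05 (y axis, higher above 0 and lower below 0) in 6 comparisons (x axis), with domain genes in dark and all genes tested in light colours. Domain genes were called lower more often than all genes in PL against PP (52.3% and 26.6%) and in KO-LPS against KO-PBS (35.9% and 19.3%), and higher more often in LL against PL (13.6% and 3.62%). Genes that start in the next widest peaks, not drawn, were at 50.2%, 47.4% and 11.6% in these comparisons.

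Lineage factors and Cx3cr1 were among the genes that fell in PL. Sall1 was at 143, 159.7 and 236 CPM in PL, against 1529, 1423 and 1706 CPM in PP, with a log2 fold change of -3.11 ± 0.20 (SE, adjusted p = 1.88e-08). Cx3cr1 was at 2582, 1901 and 2583 CPM in PL, against 6902, 6723 and 6443 CPM in PP (-1.51 ± 0.13, adjusted p = 3.19e-07). In both genes each PL library was below each PP library, by several-fold for Sall1. Maf, which encodes a transcription factor of macrophages, was at 72.9, 72.2 and 103 CPM in PL, against 637.7, 568 and 613 CPM in PP (-2.88 ± 0.17, adjusted p = 1.29e-08). Of the 7 lineage factors in domains 6 fell and 0 rose, with the exception of Spi1, which had 366, 277 and 291 CPM in PL and 352, 339 and 261 CPM in PP (-0.03 ± 0.13, adjusted p = 0.869), so that its libraries overlapped. Over all 20 lineage factors, 10 fell and 4 rose.

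Homeostatic genes did not move as one. Of the 16 in domains, 7 fell and 2 rose, and of the whole list of 26, 13 fell and 3 rose. The 2 that rose in domains were C1qb and Gpr84, which is given below with the largest rises. Tmem119 fell by 0.94 on the log2 scale (adjusted p = 3.37e-05) and Csf1r by 0.31 (adjusted p = 0.0353). C1qa, a subunit of complement C1q, did not pass the test (0.37 ± 0.17, adjusted p = 0.0852). C1qb rose by a log2 fold change of 0.54 ± 0.16 (adjusted p = 0.0134). Cst3, whose domain was split into 5 peaks in PL, had a log2 fold change of 0.00 ± 0.17 (adjusted p = 0.994).

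The genes of the widest domains moved in both directions. Slco2b1 was at 927, 751 and 1209.5 CPM in PL, against 2173, 2052 and 2085 CPM in PP (-1.13 ± 0.14, adjusted p = 1.37e-05), and Zfp710 at 140.1, 161 and 216 CPM in PL, against 464, 412 and 398 CPM in PP (-1.30 ± 0.14, adjusted p = 3.6e-06). Inpp5d fell less, by 0.54 ± 0.10 (adjusted p = 0.000461). Gpr146 was at 518, 411 and 456 CPM in PL, against 133, 128 and 124 CPM in PP, with no overlap (1.85 ± 0.10, adjusted p = 7.28e-09). Map4k4, in the widest domain of all, had 223, 250.2 and 270.1 CPM in PL and 253, 240.1 and 294 CPM in PP (-0.08 ± 0.11, adjusted p = 0.554). The lncRNAs Gm33858, Gm15635 and Gm15655, which lie opposite Cx3cr1, Slco2b1 and Maf, fell as well, but the counting is not stated to use strand, so their reads cannot be told apart from those of their partners. Mean levels in PP and in WT-PBS were 76.7 and 9.91 CPM for Gm33858, 259 and 0.826 for Gm15635, and 24.6 and 0 for Gm15655. Their partners were at 6689 and 8950 CPM (Cx3cr1), 2104 and 2159 (Slco2b1), and 606 and 798 (Maf). The study's methods name different RNA library kits for the 2 models, but the sources disagree on the kit of the recurrent model. The cause of this difference between the models was not tested.

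Among the genes called, the largest rises were those of Socs3, Gpr84 and Tnfaip2. Socs3 was at 3421, 2828 and 3229 CPM in PL, against 39.7, 31.4 and 41.5 CPM in PP, a log2 fold change of 6.41 ± 0.32 (adjusted p = 2.1e-09). Gpr84 was at 1885, 1332 and 1191 CPM in PL, against 138, 128 and 91.1 CPM in PP (3.62 ± 0.21, adjusted p = 8.22e-09). Tnfaip2, a gene induced by TNF, was at 363, 303 and 286 CPM in PL, against 31.6, 32.2 and 25.9 CPM in PP (3.40 ± 0.14, adjusted p = 5.73e-10). For these 3 genes each PL library was far above each PP library, but the rule for naming genes in this comparison required no overlap. Zfp36, which encodes an mRNA decay factor, had 1583, 1576 and 2252 CPM in PL and 288, 209 and 291 CPM in PP (2.78 ± 0.29, adjusted p = 3.13e-06), and Plekhg2, which starts in the same domain of 16200 bp, rose by 2.61 ± 0.13 (adjusted p = 3.31e-09). Ptpn1, a phosphatase gene, rose by 2.51 ± 0.12 (adjusted p = 2.1e-09), Nfkbid, an atypical inhibitor of NF-kB, by 1.82 ± 0.13 (adjusted p = 5.06e-08) and Skil, a repressor of TGF-beta signalling, by 1.44 ± 0.12 (adjusted p = 2.22e-07), all on the log2 scale. The TGF-beta receptor gene Tgfbr1 fell by 0.86 ± 0.12 (adjusted p = 3.02e-05). None of the 5 lysosomal domain genes was called in either direction.

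**Figure D5:**
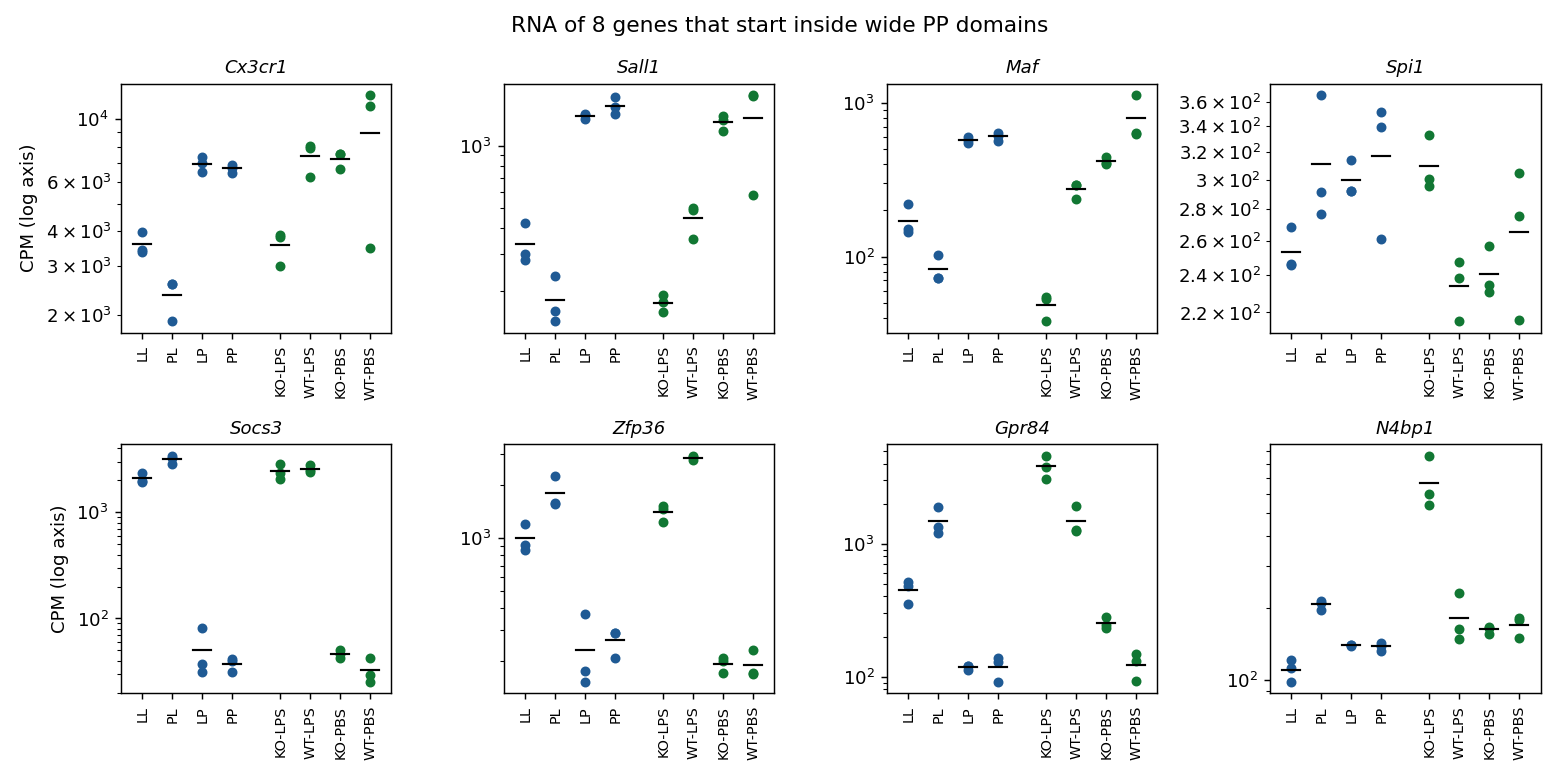
RNA level in CPM (y axis, log scale, its range differing by gene) of 8 domain genes in each library of the 8 groups (x axis), with a point for each mouse (blue for the recurrent model, green for the Ercc1 model) and a line at the mean of 3. Cx3cr1, Sall1 and Maf are lower in PL than in PP and Socs3, Zfp36 and Gpr84 are higher, while Spi1 overlaps between PL and PP and N4bp1 is highest in KO-LPS.

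The response to LPS after an earlier LPS injection was also mainly a fall. In LL against LP, 136 domain genes (38.6%) were lower and 53 (15.1%) were higher, whereas over all genes 15.9% were lower and 15.4% were higher, with a median log2 fold change of -0.22, against -0.06 over all genes. This comparison and PL against PP share no library. Of 251 genes that start in the next widest peaks, 85 (33.9%) were lower and 41 (16.3%) were higher in LL against LP. Of the domain genes that fell in LL against LP, 128 also fell in PL against PP, which is 94.1% of the LL list and 69.6% of the PL list, and 48 of those that rose did so in both (90.6% and 71.6%).

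LL and PL were compared directly to see which genes differ with the earlier injection. In LL against PL, 48 domain genes (13.6%) were higher and 20 (5.68%) were lower, whereas over all genes 3.62% were higher and 4.73% were lower. Genes that start in the next widest peaks were higher in 29 and lower in 14 of 251. Of the 7 lineage factors in domains, 4 were higher and 0 lower, among them Sall1, with 301, 424 and 281 CPM in LL against 143, 159.7 and 236 CPM in PL (0.90 ± 0.18, adjusted p = 0.00866), and Maf, with 145, 219.4 and 150.4 CPM in LL against 72.9, 72.2 and 103 CPM in PL (1.06 ± 0.17, adjusted p = 0.0017). Cx3cr1 had 3359.5, 3953 and 3413 CPM in LL against 2582, 1901 and 2583 CPM in PL (0.60 ± 0.12, adjusted p = 0.00953). In these 3 genes the LL libraries lay above all PL libraries and below all PP libraries. Genes named for their change in LL against PL, among them Maf, were admitted only without overlap. Without LL library 2 the called number was 15 in place of 68, and without PL library 2 it was 27.

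The 3 largest differences below 0 in LL against PL were in genes that had risen in PL. Tnfaip2 was at 75.7, 56.0 and 72.7 CPM in LL, against 363, 303 and 286 CPM in PL (-2.22 ± 0.13, adjusted p = 9.87e-07), Gpr84 at 518, 354 and 479 CPM in LL against 1885, 1332 and 1191 CPM in PL (-1.71 ± 0.19, adjusted p = 0.000117), and Hpn, which encodes the protease hepsin, at 15.8, 15.8 and 19.4 CPM in LL against 73.0, 124 and 87.6 CPM in PL (-2.49 ± 0.19, adjusted p = 3.74e-06). Socs3 had 2363, 1947 and 1955 CPM in LL and 3421, 2828 and 3229 CPM in PL, which did not pass the test (-0.60 ± 0.25, adjusted p = 0.157). Gpr146 did not differ detectably either, with 503, 445 and 463 CPM in LL and 518, 411 and 456 CPM in PL (0.03 ± 0.10, adjusted p = 0.897).

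The difference between the second and the first response was itself tested, as LL against LP minus PL against PP. For domain genes it was higher in 4 (1.14%) and lower in 8 (2.27%), whereas over all genes 0.335% were higher and 1.46% were lower. The 4 and 8 in edgeR were 6 and 6 with RLE scaling, 45 and 12 with DESeq2, and 76 and 16 with limma and surrogate variables, so that the balance of directions depends on the tool. Among the genes called, the 3 largest by size were lower in the second response, namely Hpn (-2.41 ± 0.27, adjusted p = 0.000443), Tnfaip2 (-2.36 ± 0.19, adjusted p = 4.87e-05) and Gpr84 (-1.68 ± 0.27, adjusted p = 0.00524). Maf had the largest positive difference of the 4 called (1.13 ± 0.23, adjusted p = 0.0217), with a fall of 1.74 in LL against LP and a fall of 2.88 in PL against PP on the log2 scale. Without PL library 3 the number called was 38, and without LL library 2, LP library 2, LP library 3 or PP library 1 it was 5, 7, 6 and 6. Of 251 genes that start in the next widest peaks, 5 (1.99%) were higher and 4 (1.59%) were lower in this test.

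KO-PBS and WT-PBS were compared for the difference between the genotypes without LPS. In KO-PBS against WT-PBS, 15 of 334 (4.49%) were higher and 26 (7.78%) were lower, whereas over all genes 8.19% were higher and 3.37% were lower. Without the third WT-PBS library the numbers were 19 and 64 of 338, and the total of 41 became 22, 24 and 18 without the first, the second and the third KO-PBS library. With all libraries, the balance towards lower genes was not particular to the domains. Of 247 genes that start in the next widest peaks, 14 were higher and 21 were lower. Their median log2 fold change was -0.11, against -0.08 for domain genes. In domains with under 80% coverage in KO-PBS, 11 of 97 genes (11.3%) were lower and 3 higher, and in the other domains 15 of 237 (6.33%) were lower and 12 higher.

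The largest difference among the genes called was that of Sdc3, which encodes the proteoglycan syndecan-3. It was at 622, 660.2 and 647 CPM in KO-PBS, against 99.8, 119.8 and 106 CPM in WT-PBS (2.57 ± 0.15, adjusted p = 6.11e-07), with no overlap, as the rule for naming it required. Its domain (chr4:130792001-130805200, 13200 bp) was 1 peak over 87.9% of its length in KO-PBS and 3 peaks over 50.0% in WT-PBS, although 383 of 517 domains had lower coverage in KO-PBS. The gene Plau, which encodes urokinase, was at 167, 233 and 204 CPM in KO-PBS, against 91.9, 119 and 63.4 CPM in WT-PBS (1.14 ± 0.22, adjusted p = 0.00596), and its domain was covered over 100% in KO-PBS and 88.2% in WT-PBS. The lncRNA AU020206 was at 467, 437 and 447 CPM in KO-PBS, against 226, 223 and 169 CPM in WT-PBS (1.13 ± 0.15, adjusted p = 0.000426), and its domain was covered over 86.0% in KO-PBS and 71.0% in WT-PBS. Hpn was also higher (1.97 ± 0.34, adjusted p = 0.00285), at 24.3, 18.7 and 22.8 CPM in KO-PBS against 7.33, 5.11 and 4.42 CPM in WT-PBS, as was Gpr84 (1.04 ± 0.22, adjusted p = 0.00902). The domain of Hpn was covered over 74.6% in KO-PBS and 76.1% in WT-PBS, and that of Gpr84 over 83.3% in KO-PBS and 88.1% in WT-PBS. Without the third WT-PBS library these log2 fold changes were 2.53 for Sdc3, 0.91 for Plau, 0.98 for AU020206, 1.798 for Hpn and 0.85 for Gpr84, with adjusted p between 8.08e-07 and 0.0135.

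Genes lower in KO-PBS included Maf, at 402, 442 and 408 CPM in KO-PBS against 636, 631 and 1127 CPM in WT-PBS (-0.94 ± 0.22, adjusted p = 0.0149), and Txnip, an inhibitor of thioredoxin, at 417, 457 and 429 CPM in KO-PBS against 686, 772 and 959 CPM in WT-PBS (-0.89 ± 0.20, adjusted p = 0.0139). Stab1, a scavenger receptor gene that is also a marker of border-associated macrophages, was at 699, 590.1 and 503 CPM in KO-PBS, against 900.1, 831 and 1125 CPM in WT-PBS (-0.67 ± 0.14, adjusted p = 0.0101). In these genes each KO-PBS library was below each WT-PBS library, as the rule for naming genes in this comparison required. Without the third WT-PBS library the differences were -0.63 for Maf, -0.77 for Txnip and -0.56 for Stab1, with adjusted p between 0.00982 and 0.0204. The domain of Stab1 was covered over 64.0% in KO-PBS and 82.7% in WT-PBS, whereas that of Txnip was covered over 97.5% in both. Cx3cr1 had 7498, 7541 and 6664 CPM in KO-PBS and 11135, 12234 and 3481 CPM in WT-PBS, in which the low value is the third library, and its log2 fold change was -0.31 ± 0.34 (adjusted p = 0.628) with all libraries and -0.72 (adjusted p = 0.00498) without that one.

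LPS in the Ercc1 model was compared in each genotype. In WT-LPS against WT-PBS, 52 of 334 domain genes (15.6%) were lower and 49 (14.7%) were higher, whereas over all genes 9.15% were lower and 10.7% were higher, and without the third WT-PBS library they were 79 and 58. In KO-LPS against KO-PBS, 120 (35.9%) were lower and 57 (17.1%) were higher, whereas over all genes 19.3% were lower and 17.7% were higher, with a median log2 fold change of -0.36. Of the genes called lower, 50 of the WT-LPS list were also lower in PL against PP, a comparison in other mice, which is 96.2% of the WT-LPS list and 29.2% of the PL list among the 326 genes tested in both. For KO-LPS the shared number was 100, or 84.7% of the KO-LPS list and 58.5% of the PL list. The fall was not particular to the domains. Of 247 genes that start in the next widest peaks, 51 (20.6%) were lower and 33 (13.4%) higher in WT-LPS against WT-PBS. In KO-LPS against KO-PBS, 117 (47.4%) of these were lower and 43 (17.4%) higher, with a median log2 fold change of -0.43.

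Among the genes called, Tnfaip2 and Socs3 had the largest rises in KO, and Socs3 the largest in WT. Tnfaip2 was at 803, 585 and 3198 CPM in KO-LPS, against 33.2, 23.4 and 23.0 CPM in KO-PBS (5.85 ± 0.68, adjusted p = 4.58e-05). Socs3 was at 2337, 2078 and 2883 CPM in KO-LPS against 50.4, 46.7 and 42.4 CPM in KO-PBS (5.71 ± 0.23, adjusted p = 4.3e-08), and with 2779, 2519 and 2397 CPM in WT-LPS against 29.2, 25.2 and 42.8 CPM in WT-PBS (6.31 ± 0.24, adjusted p = 1.82e-08). Sall1 was at 176, 189.7 and 158 CPM in KO-LPS, against 1326, 1384 and 1169 CPM in KO-PBS (-2.89 ± 0.34, adjusted p = 4.66e-05), and at 354, 501 and 488 CPM in WT-LPS, against 1731, 1752 and 576 CPM in WT-PBS (-1.59 ± 0.32, adjusted p = 0.00464). Without the third WT-PBS library the WT change was -1.96 for Sall1 (adjusted p = 1.32e-06) and 6.56 for Socs3 (adjusted p = 1.5e-09). Cx3cr1 was at 3876, 3816 and 2985 CPM in KO-LPS, against 7498, 7541 and 6664 CPM in KO-PBS (-1.02 ± 0.34, adjusted p = 0.0336). In WT-LPS it had 6252, 7904 and 8034 CPM, which overlapped the WT-PBS values, and its fall of 0.28 there did not pass the test (adjusted p = 0.627), although it did without the third WT-PBS library, at -0.66 (adjusted p = 0.00534).

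The difference in response between the genotypes was tested as an interaction. The response in KO minus that in WT was lower in 42 of 334 domain genes (12.6%) and higher in 8 (2.40%), whereas over all genes 3.08% were lower and 1.55% were higher, with a median of -0.35, against -0.04 over all genes. Without the third WT-PBS library it was lower in 48 and higher in 18. The total of 50 became 21, 16 and 29 without the first, the second and the third KO-PBS library, and 14 and 16 without the second and the third WT-LPS library. The difference was not particular to the domains. Of 247 genes that start in the next widest peaks, it was lower in 34 (13.8%) and higher in 6 (2.43%). Of the 7 lineage factors in domains, 4 were lower, with a median over the 7 of -1.29. Maf was at 53.0, 55.1 and 38.1 CPM in KO-LPS and 402, 442 and 408 CPM in KO-PBS, against 239, 292 and 291 CPM in WT-LPS, next to 636, 631 and 1127 CPM in WT-PBS, which gave a difference of -1.56 ± 0.31 (adjusted p = 0.0168).

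Further genes with a different response were Lyl1, a transcription factor gene of blood cells, and Tifab, an inhibitor of TRAF6 signalling. Lyl1 was at 47.3, 39.0 and 33.2 CPM in KO-LPS and 134, 122 and 118 CPM in KO-PBS, against 111, 130.2 and 147 CPM in WT-LPS, next to 153, 137 and 129.9 CPM in WT-PBS (-1.53 ± 0.20, adjusted p = 0.00341). Tifab was at 31.6, 36.3 and 17.2 CPM in KO-LPS and 215, 221 and 223 CPM in KO-PBS, against 117, 155 and 166 CPM in WT-LPS, next to 296, 272 and 132 CPM in WT-PBS (-2.28 ± 0.42, adjusted p = 0.0127). For Lyl1 and Tifab the KO-LPS libraries were the lowest of all 12. N4bp1, a regulator of NF-kB signalling, went the other way, with 598, 541 and 864 CPM in KO-LPS and 166, 166 and 156 CPM in KO-PBS, against 230.1, 164 and 148.7 CPM in WT-LPS, next to 178, 181 and 149.5 CPM in WT-PBS (1.94 ± 0.27, adjusted p = 0.00394). Zfp36 rose in both genotypes but less in KO, with 1464, 1238 and 1524 CPM in KO-LPS and 2894, 2953 and 2795 CPM in WT-LPS (-1.05 ± 0.21, adjusted p = 0.0168). Without the third WT-PBS library these differences in response were -1.84 for Maf, -1.43 for Lyl1, -1.95 for Tifab, 2.08 for N4bp1 and -1.17 for Zfp36, with adjusted p between 0.000672 and 0.00461.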

How the data were processed

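RNA tables hold expected counts per gene that the authors made with STAR 2.7.3a on GRCm38 and featureCounts 2.0.0. The deposited peak lists give a score, −log10 p and −log10 q per H3K27ac, H3K4me3, H3K4me1 or H3K27me3 peak (SPAN 0.11.0 against input, bins of 200 bp; every H3K27ac list at a false discovery rate of 1e-6 and gap 5, the other marks at other settings) and a score, a signal and −log10 p per ATAC peak (Genrich 0.5, p 0.01), after Bowtie2 2.3.5.1 alignment by the authors. Mice were taken as replicates for RNA, 3 per group.

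Expected counts were rounded, filtered with filterByExpr and scaled by TMM, and 16096 (recurrent model) and 17460 (Ercc1 model) of 55536 genes were tested with edgeR 4.0.16 (quasi-likelihood, R 4.3.3), each model on its 12 libraries. Adjusted p values are Benjamini-Hochberg values over all genes tested, called under 0.05, and RPKM is TMM-scaled CPM per kb of gene length. Domains and lists were compared by overlap in Python 3.11.15, and domain genes are protein-coding and lncRNA genes whose 5′ end lies in a domain. The fit was tested on simulated counts.

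The members and gene lists were chosen with earlier results of these data known. Named genes are those in the 10 widest domains, up to 4 members per list by level, in each comparison the 5 genes at most that changed most in either direction (adjusted p under 0.05, at least 5 CPM, no overlap), up to 5 per interaction, and the 5 lowest covered domains and 5 widest peaks elsewhere per list. Tmem119, Csf1r and the miRNAs were added after their values were seen. Alternatives were DESeq2 1.42.0, limma 3.58.1 with sva 3.50.0, RLE scaling, no filter, single libraries left out, a replicate block and other peak sets. Results for withheld genes are not reported here.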

Additional observations from a re-analysis of the deposited data

Results flagged for a closer look

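The response to LPS of 14 named domain genes differed between KO and WT mice, by a test of the difference itself (the interaction in edgeR, adjusted p under 0.05). As the KO response minus the WT response on the log2 scale, it was lower for Tifab (-2.28), Ppp1r18os (-2.13), Rtn4rl1 (-2.08), Gpr160 (-1.93), C130050O18Rik (-1.87), Zfp710 (-1.66), Irf2bpl (-1.58), Maf (-1.56), Rilpl1 (-1.54), Lyl1 (-1.53), Plau (-1.36) and Zfp36 (-1.05), and higher for N4bp1 (1.94) and Vav1 (0.76). In the recurrent model, the second response minus the first differed by the same test for 7 named genes, lower for Hpn (-2.41), Tnfaip2 (-2.36), Gpr84 (-1.68), N4bp1 (-0.92) and Nfkbid (-0.77), and higher for Maf (1.13) and Tifab (0.91). Up to 5 genes per interaction were named because of this test, so their passing it was fixed in advance. Over all genes, 3.08% were lower and 1.55% higher in the KO minus the WT response. In the second minus the first response, 1.46% were lower and 0.335% higher over all genes. Ppp1r18os was low, at means of 0.557 CPM in WT-PBS, 1.04 in KO-PBS, 3.32 in WT-LPS and 1.43 in KO-LPS.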

How the results depend on the processing

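Over the 64 named genes, 6261 of 6648 alternative values kept their side of the threshold, 216 lost the call, 0 reversed and the others gained it; of the counts and shares, 111 moved by less than their limit and 64 by more. With the 250 widest peaks in place of 500, which leaves fewer genes, calls numbered 120 for PL against PP, 84 for LL against LP, 30 for LL against PL, 3 for the second minus the first response, 15 for KO-PBS against WT-PBS, 43 for WT-LPS against WT-PBS, 88 for KO-LPS against KO-PBS and 19 for the KO minus the WT response. DESeq2 called 57 for the second minus the first response, 65 for KO-PBS against WT-PBS and 81 for the KO minus the WT response. Limma with sva called 1 for LP against PP, 115 for LL against PL, 92 for the second minus the first response and 91 for the KO minus the WT response. Without a filter on low counts, LP against PP had 1 call and the second minus the first response had 41. The cause of these differences was not tested.

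Leaving out 1 library at a time gave 0 to 0 calls for LP against PP, 235 to 249 for PL against PP, 146 to 174 for LL against LP, 15 to 83 for LL against PL (40 and 45 without LL libraries 1 and 3), 5 to 38 for the second minus the first response, 18 to 83 for KO-PBS against WT-PBS, 68 to 137 for WT-LPS against WT-PBS, 159 to 169 for KO-LPS against KO-PBS and 14 to 66 for the KO minus the WT response. Replicate numbers of the recurrent model were not used to pair the samples in the main fit. Of 18 same-numbered pairs, 7 had a correlation of deviations above 0.1 (-0.409 to 0.414). Pairs with different numbers ran from -0.395 to 0.505. Deviations from a mean of 3 libraries constrain each other, so this check cannot exclude pairing. With the replicate number as a block the calls were 253 for PL against PP, 187 for LL against LP, 62 for LL against PL, 0 for LP against PP and 8 for the second minus the first response.

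The share of domains covered over at least 80% depended on the peaks used. With the 1000 widest PP peaks it was 78.9% in PL, 88.9% in LL, 59.6% in KO-PBS and 75.3% in WT-PBS. With only peaks at or above the median -log10 q of PP it was 89.4% in LP, 66.7% in PL, 75.8% in LL, 46.2% in KO-PBS and 63.4% in WT-PBS. With peaks at most 2000 bp apart joined it was 99.6%, 92.8%, 96.5%, 76.8% and 88.6% in the same order, and with an overlap of 50% of the shorter region it was 97.1% in LP. The share met by 1 peak was 82.4% in LP, 70.5% in LL, 48.3% in KO-PBS and 59.8% in WT-PBS with the 1000 widest, 82.8%, 72.5%, 78.1%, 63.8% and 68.7% in LP, PL, LL, KO-PBS and WT-PBS with the higher -log10 q, and 97.7%, 86.1%, 92.1%, 69.6% and 82.6% with peaks joined. In each of these settings with values for all 5 lists the covered share was highest in LP and lowest in KO-PBS. Peak lists hold 1 library each and depth behind the peaks is unknown, so no difference between lists has a replicate error.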
